A study of Mus musculus with 15 samples.

Results

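Interferons signal through receptor chains that carry Janus kinases on their inner side. Interferon-gamma binds IFNGR1, which holds JAK1, and the complex is completed by IFNGR2, which holds JAK2. Type I interferons, IFN-beta among them, bind IFNAR2 with JAK1 and IFNAR1 with TYK2, and in both systems the kinases phosphorylate STAT proteins that switch on interferon-stimulated genes. PTPN2 is a phosphatase that removes phosphate from JAK1 and so dampens the signal. The expression of 10 genes of this machinery was described here, namely the ligand genes IFNG and IFNB1, the receptor genes IFNGR1, IFNGR2, IFNAR1 and IFNAR2, the kinase genes JAK1, JAK2 and TYK2, and the phosphatase gene PTPN2. They were chosen by symbol, and 10 of 10 were found among the 24891 genes of the expression table.

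The 15 RNA-seq libraries came from 105K tumors grown under the skin of wild-type male C57BL/6J mice that were 6 weeks old at inoculation. The 105K line is a renal tumor line lacking Tsc2 that was derived from a Tsc2+/- mouse, and loss of Tsc2 leaves mTORC1 active in every group, controls included. The cells carried a non-target hairpin (sh-NC) or 1 of 2 different hairpins against B7-H3, the checkpoint protein encoded by CD276, named sh-B7-H3 (1) and, for the other, sh-B7-H3 (2). They were puromycin-selected pools, not single clones. There were 3 libraries each of bulk sh-NC tumor, bulk sh-B7-H3 (1) tumor, and sorted sh-NC, sorted sh-B7-H3 (1) and sorted sh-B7-H3 (2) tumor cells. For the sorted material, non-tumor cells were removed with magnetic beads and the remainder was sequenced. The study's methods call them biological samples but do not say that each came from a separate animal, so the p-values measure the spread between these samples.

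Levels are FPKM, read counts corrected for gene length and library size, scaled between libraries by a median ratio with factors between 0.650 and 1.18. Read totals were not used here. A single short RNA gene, MIR6236, took 79.7% of the summed FPKM in bulk sh-NC replicate 3, 74.4% in bulk sh-B7-H3 (1) replicate 2 and 51.6% in sorted sh-NC replicate 2. CD276, the target, stood at 17.3 to 34.0 scaled FPKM in sorted sh-NC and 7.29 to 13.96 in sorted sh-B7-H3 (1), but at 23.3 to 25.7 in sorted sh-B7-H3 (2). In bulk tumor CD276 stood at 20.8 to 23.5 with sh-NC and 17.8 to 24.4 with sh-B7-H3 (1). The log2 fold changes in CD276 were -1.04 for sorted sh-B7-H3 (1) (limma adjusted p = 0.0547), 0.12 for sorted sh-B7-H3 (2) (adjusted p = 0.775) and -0.07 for bulk (adjusted p = 0.709). The hairpin names therefore stand below for the libraries labelled so. The 7 renal epithelial marker genes were above 0 in all 15 libraries. Sorted sh-B7-H3 (2) replicate 1 stood apart, with 361 scaled FPKM summed over 10 leukocyte markers against 5.98 to 12.3 in the other 8 sorted libraries, and fits were repeated without it. With sh-B7-H3 (2) 0 of the 8 genes tested passed, where 19.1% of all genes did. Without this library 0 of the 8 passed, where 1357 of all 10901 genes tested did.

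Of the 10 genes, 3 receptor genes lie close together on mouse chromosome 16 (RefSeq, mm10): Ifnar2 at chr16:91372783-91405589, Ifnar1 at chr16:91485032-91510523 and Ifngr2 at chr16:91547059-91564007. Il10rb, which encodes the shared chain of the IL-10 family receptors, lies between Ifnar2 and Ifnar1, at chr16:91406157-91425834. Ifngr1 lies at chr10:19591949-19610229 and Ifng at chr10:118441046-118445894. The kinase genes lie at chr4:101151974-101265282 (Jak1), chr19:29251803-29313095 (Jak2) and chr9:21104068-21131393 (Tyk2), and Ifnb1 lies at chr4:88522025-88522794. All are annotated as protein-coding.

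The RefSeq promoter windows, 250 bases before to 50 after the start, were searched on both strands for 3 motifs in 9 of the genes. These were the gamma-activated site (GAS, TTCNNNGAA), the interferon-stimulated response element (ISRE) and the core bound by interferon regulatory factors (AANNGAAA), which an ISRE overlaps. GAS letters occurred in 8.30% of all 32851 windows, ISRE letters in 3.44% and the core in 23.9%. The Ifnar1, Ifnar2 and Ifng windows held a GAS match, Ifng held 1 core and Ifnb1 held 3 cores. No ISRE match was found in the 9 windows, and those of Ifngr1, Ifngr2, Jak1, Jak2 and Tyk2 held none of the 3 motifs. The stretches below show the Ifnb1 cores and the GAS matches of the type I receptor genes (both in capitals), and for contrast the GC-rich stretch before Ifngr2, the 1 receptor gene of the 4 that passed the test in any comparison.
Ifnb1, chr4:88522869-88522959, minus strand: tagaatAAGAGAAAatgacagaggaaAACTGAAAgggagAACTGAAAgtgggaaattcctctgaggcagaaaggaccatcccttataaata
Ifnar2, chr16:91372559-91372587, plus strand: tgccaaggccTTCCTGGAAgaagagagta
Ifnar1, chr16:91485199-91485228, plus strand: gggcgggggcgTTCACGGAAggggcggggc
Ifngr2, chr16:91546929-91547058, plus strand: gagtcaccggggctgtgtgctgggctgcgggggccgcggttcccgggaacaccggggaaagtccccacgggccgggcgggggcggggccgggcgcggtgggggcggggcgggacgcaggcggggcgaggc
Counted from the start site of each window, the Ifnar2 match begins at position -214 and the Ifnar1 match at position -5. The Ifnar1 window is set on a start site at base 91485215, inside the annotated gene, and the Ifnar2 window on base 91372783, where the gene begins. A match of letters is a description and not a shown binding site.

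The ligand genes were close to the lowest level that could be read. IFNB1, the gene for IFN-beta, was listed at 0 in sorted sh-NC replicates 1, 2 and 3. In sorted sh-B7-H3 (1) it was 0.193, 0.1003 and 0.131 scaled FPKM, and in sorted sh-B7-H3 (2) it was 0.0717, 0.143 and 0.0583. All 6 libraries with a B7-H3 hairpin were thus above 0 and all 3 sorted controls were at 0. Once the deposited, unscaled FPKM were multiplied by relative depth, all 14 values of IFNB1 and IFNG above 0 were whole multiples of their gene's smallest step (tolerance 0.02), which would be 1 read if whole reads were counted. On that reading IFNB1 had 3, 2 and 3 steps in sorted sh-B7-H3 (1) and 1, 2 and 1 in sorted sh-B7-H3 (2), or 12 in the 6 libraries against 0 in the 3 controls. Set against a floor of 3 counts over the control group, and allowing for depth, the observed IFNB1 level of the 6 libraries was 2.48-fold that floor. The counting error of the 12 steps is not part of this value, so it is not a lower limit. The 2-sided exact permutation test on log2 values, 6 libraries against 3, gave p = 0.0238, which is the smallest it can give and is not adjusted. This test treats the 6 as independent, as do the fits over both hairpins below. Same-numbered libraries of the hairpins deviated together, however, with correlations of 0.316, 0.330 and 0.357. Without the leukocyte-rich library, 5 of 5 against 0 of 3 libraries were above 0 (exact permutation p = 0.0357). The cytotoxic cell markers NKG7 and GZMB had the same pattern, at 0 in the 3 sorted controls and above 0 in all 6 libraries. GZMA, PRF1, KLRK1 and NCR1 were at 0 in the controls and in some of the 6. The part of such cells in the IFNB1 values was not tested. Of 1376 genes at 0 in the 3 sorted controls and above 0 in at least 1 of the 6 other sorted libraries, 39 were above 0 in all 6, a share of 2.83%. These 1376 genes were not matched to IFNB1 in level. The other way round, of 355 genes at 0 in the 6 and above 0 in at least 1 control, 10 were above 0 in all 3 controls.

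In bulk tumor IFNB1 did not separate the groups. It had 2, 0 and 0 steps with sh-NC and 1, 1 and 3 with sh-B7-H3 (1), and the exact permutation test, 3 libraries against 3, gave p = 0.3. A comparison of 3 against 3 cannot give a p below 0.1. These are single reads or a few reads, so the intervals of any ratio are wide and cover counting error only.

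IFNG, the gene for interferon-gamma, which T cells and natural killer cells make, was listed at 0 in 8 of 9 sorted libraries. The exception was sorted sh-B7-H3 (2) replicate 1, at 0.724 scaled FPKM or 18 steps. The same library held 19.9 scaled FPKM summed over 6 T cell markers, against 0.520 to 2.11 in the other sorted libraries, and 18.4 over 6 cytotoxic and natural killer markers, against 0 to 0.336. Without that library IFNG was at 0 in every sorted library. The 6 cytotoxic markers were at 0 in the 3 sorted sh-NC libraries. In bulk tumor IFNG had 0, 1 and 0 steps with sh-NC and 4, 2 and 0 with sh-B7-H3 (1), and the groups overlapped (exact permutation p = 0.4).

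**Figure D1:**
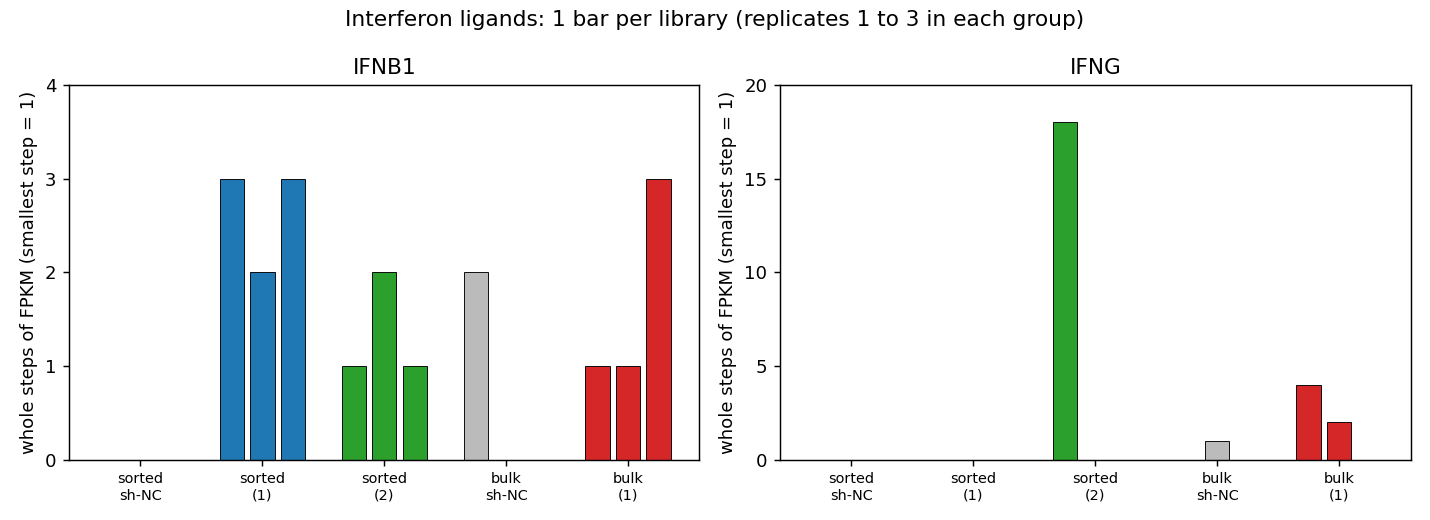
Whole steps of FPKM (1 step is the smallest value seen for the gene after allowing for depth) for IFNB1 (left) and IFNG (right) in each of the 15 libraries, with 1 bar per library and replicates 1 to 3 side by side in each group. IFNB1 has 1 to 3 steps in all 6 sorted libraries with a B7-H3 hairpin and 0 in the 3 sorted controls, and IFNG has 18 steps in a single sorted library.

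The other 19 interferon ligand genes in the table gave no more. Of these, 7 were at 0 in all 15 libraries, and 8 IFNA genes were above 0 only in bulk sh-B7-H3 (1) replicate 2, at no more than 0.0135 scaled FPKM. Those IFNA genes are near-identical copies that can share reads, so their separate values are uncertain. IFNZ was above 0 in 12 libraries, reaching 0.1003 scaled FPKM. None of the 19 passed the filter on low values, which was at least 1 scaled FPKM in 3 libraries of a comparison.

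The remaining 8 genes passed that filter in every comparison. On the FPKM scale, which corrects for gene length, IFNGR1 was the highest of them in each group and TYK2 the lowest. Group means in sorted sh-NC ran from 54.4 ± 6.57 scaled FPKM (SD, n = 3) for IFNGR1, through 36.5 ± 6.59 for IFNAR2, 35.6 ± 2.25 for IFNGR2, 34.1 ± 6.97 for JAK1, 27.7 ± 5.36 for PTPN2, 11.5 ± 1.30 for IFNAR1 and 10.2 ± 2.58 for JAK2, to 3.73 ± 1.24 for TYK2. From IFNAR2 down to PTPN2 the ranges of neighbours in this order overlapped, as did those of IFNAR1 and JAK2. In bulk, where the RNA of many cell types is mixed, fewer cells of a type and less RNA per cell cannot be told apart.

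IFNGR2, the chain that brings JAK2 into the interferon-gamma receptor, rose with the B7-H3 hairpins. Its values were 38.1, 35.2 and 33.6 scaled FPKM in sorted sh-NC, 50.4, 49.5 and 49.9 in sorted sh-B7-H3 (1), and 50.6, 44.5 and 46.1 in sorted sh-B7-H3 (2). The lowest of the 6 values with a B7-H3 hairpin lay above the highest control value. The log2 fold change over both hairpins was 0.43 (SE 0.09, 1.35-fold on the log2(FPKM + 1) scale, limma adjusted p = 0.00545). It held in all 16 alternative settings, with adjusted p between 0.00136 and 0.0337, and was 0.42 (adjusted p = 0.0142) without the leukocyte-rich library. With sh-B7-H3 (1) alone it was 0.48 (SE 0.12, adjusted p = 0.0332), and with sh-B7-H3 (2) alone 0.39 (SE 0.12, adjusted p = 0.0575), which missed the threshold, as it did without the leukocyte-rich library (0.34, adjusted p = 0.182). The sh-B7-H3 (1) call was lost in 8 of 13 alternative settings, with adjusted p between 0.00295 and 0.148. These single-hairpin comparisons share the sorted sh-NC libraries. In bulk tumor IFNGR2 was 36.5, 41.4 and 46.2 with sh-NC and 55.0, 55.3 and 53.2 with sh-B7-H3 (1), again without overlap, and rose by a log2 fold change of 0.40 (SE 0.10, adjusted p = 0.0391). The bulk call was lost in 8 of 13 alternative settings, among them the FPKM as deposited, where the groups overlapped (adjusted p = 0.597).

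IFNGR1, the chain that binds interferon-gamma, did not pass the test in any comparison. It was 49.5, 51.9 and 61.9 scaled FPKM in sorted sh-NC, 70.0, 59.8 and 67.6 in sorted sh-B7-H3 (1), and 69.0, 64.9 and 67.9 in sorted sh-B7-H3 (2), so 1 value of sorted sh-B7-H3 (1) lay within the control range. The log2 fold change over both hairpins was 0.29 (SE 0.10, adjusted p = 0.0679). In bulk it was 55.7, 59.4 and 70.6 with sh-NC and 78.1, 73.1 and 73.3 with sh-B7-H3 (1), with a log2 fold change of 0.28 (SE 0.11, adjusted p = 0.109).

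The ratio of IFNGR1 to IFNGR2 within a library, which no scaling between libraries can alter, overlapped among the sorted groups but not between the bulk groups. It was 1.54 ± 0.276 (SD, n = 3) in sorted sh-NC, 1.32 ± 0.0960 in sorted sh-B7-H3 (1) and 1.43 ± 0.0595 in sorted sh-B7-H3 (2). In bulk it was 1.43 to 1.53 with sh-NC and 1.32 to 1.42 with sh-B7-H3 (1), apart by a narrow gap.

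The type I receptor chains did not pass the test in any comparison. IFNAR2, the chain with the higher affinity for type I interferon, was 39.9, 40.8 and 28.9 scaled FPKM in sorted sh-NC, 49.0, 54.6 and 41.2 in sorted sh-B7-H3 (1), and 40.5, 38.9 and 36.3 in sorted sh-B7-H3 (2). Only sorted sh-B7-H3 (1) lay clear of the controls, by a narrow gap, with a log2 fold change of 0.40 (SE 0.18, adjusted p = 0.216) against 0.09 (SE 0.16, adjusted p = 0.743) for sh-B7-H3 (2). In bulk IFNAR2 was 35.6, 37.9 and 40.9 with sh-NC and 57.7, 39.6 and 49.6 with sh-B7-H3 (1), and the ranges overlapped (log2 fold change 0.34, SE 0.14, adjusted p = 0.130).

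IFNAR1, the chain that holds TYK2, was 13.0, 10.9996 and 10.6 scaled FPKM in sorted sh-NC, 8.61, 9.79 and 9.71 in sorted sh-B7-H3 (1), and 10.9, 11.01 and 10.6 in sorted sh-B7-H3 (2). The log2 fold changes were -0.27 (SE 0.13, adjusted p = 0.258) and -0.08 (SE 0.12, adjusted p = 0.711). In bulk IFNAR1 was 11.9, 12.9 and 11.7 with sh-NC and 13.1, 13.3 and 13.3 with sh-B7-H3 (1), a difference of 0.11 (SE 0.08, adjusted p = 0.341). The sorted and bulk differences with sh-B7-H3 (1) thus lay on opposite sides of 0, and the test of the difference between them gave -0.39 (SE 0.14, unadjusted p = 0.0198, adjusted p = 0.278).

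The IFNAR2 to IFNAR1 ratio within a library was 5.68, 5.58 and 4.24 in sorted sh-B7-H3 (1), above all other sorted libraries. It was 3.06, 3.71 and 2.73 in sorted sh-NC and 3.70, 3.53 and 3.44 in sorted sh-B7-H3 (2). In bulk the ratio was 2.99, 2.93 and 3.51 with sh-NC and 4.39, 2.97 and 3.73 with sh-B7-H3 (1), and the groups overlapped. The ratios here and below were chosen with results of these data known and are given as a description, with no test.

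**Figure D2:**
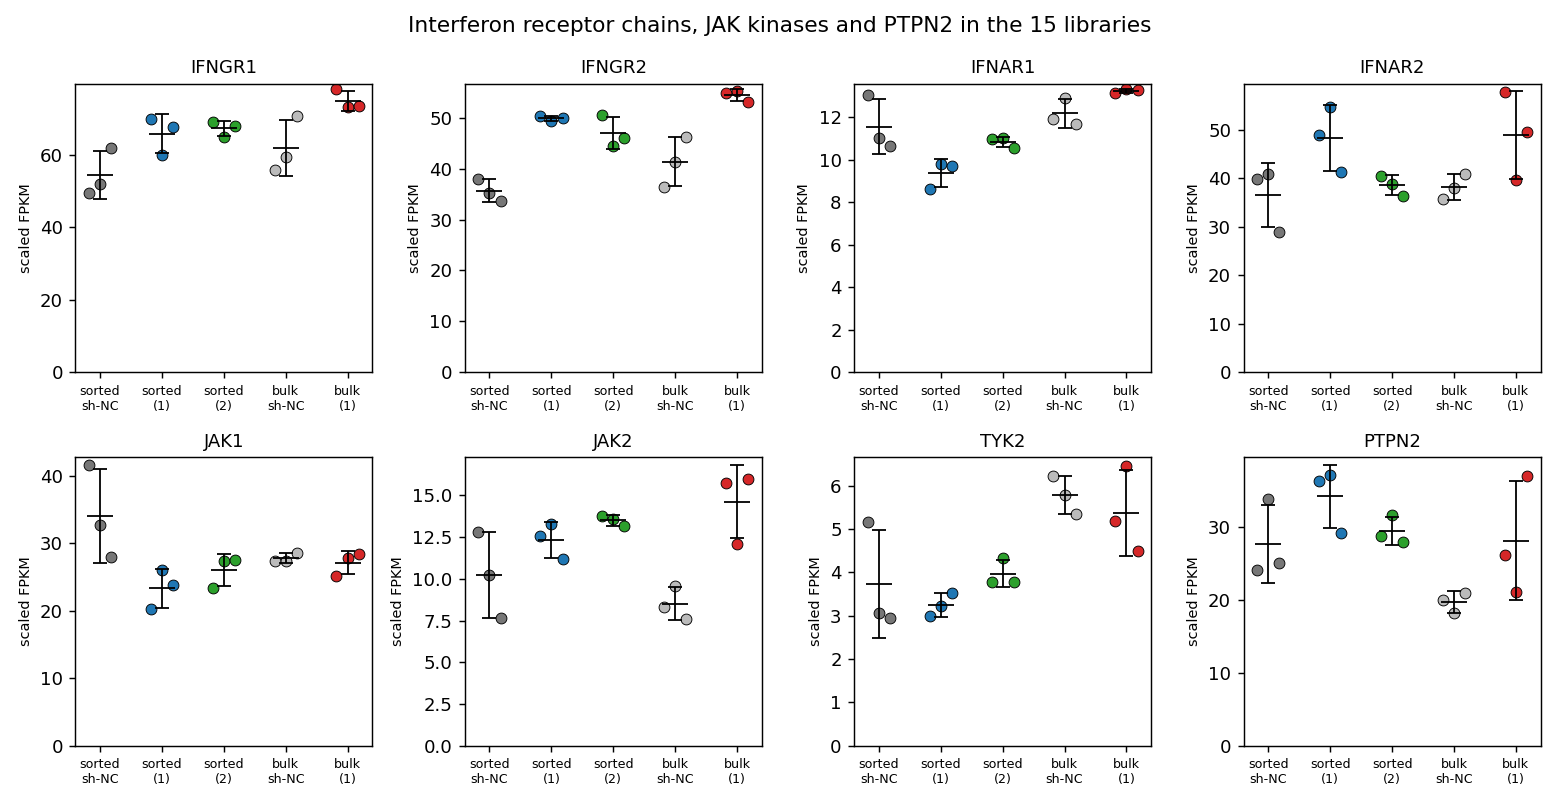
Scaled FPKM (linear axes from 0) of the 4 receptor genes, 3 kinase genes and PTPN2 in the 15 libraries, with 1 point per library and the mean ± SD of each group of 3. IFNGR2 sits at 44.5 to 50.6 with either hairpin against 33.6 to 38.1 in sorted controls, and at 53.2 to 55.3 against 36.5 to 46.2 in bulk, whereas JAK1 in sorted sh-NC sits above the other sorted libraries.

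JAK1, the kinase shared by both receptor systems, fell in sorted cells. It was 41.7, 32.7 and 28.0 scaled FPKM in sorted sh-NC, 20.2, 26.0 and 23.8 in sorted sh-B7-H3 (1), and 23.4, 27.4 and 27.5 in sorted sh-B7-H3 (2). The highest of the 6 values lay just under the lowest control. Over both hairpins the log2 fold change was -0.44 (SE 0.14, 0.738-fold, adjusted p = 0.0477). The call was lost in 12 of 16 alternative settings, with adjusted p between 0.0118 and 0.383. Leaving out sorted sh-NC replicate 1, the highest library, gave -0.29 (adjusted p = 0.137), and the FPKM as deposited gave -0.23 (adjusted p = 0.383). Without the leukocyte-rich library it was -0.43 (adjusted p = 0.0877). The single hairpins gave -0.52 (SE 0.18, adjusted p = 0.104) and -0.36 (SE 0.17, adjusted p = 0.184).

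In bulk tumor JAK1 was nearly level, at 27.3, 27.4 and 28.6 with sh-NC and 25.2, 27.8 and 28.5 with sh-B7-H3 (1). The log2 fold change there was -0.03 (SE 0.09, adjusted p = 0.791). The difference between the sorted and the bulk effect of sh-B7-H3 (1) was -0.48 (SE 0.20, unadjusted p = 0.0329, adjusted p = 0.321), which did not pass the test.

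JAK2, the kinase that IFNGR2 holds, rose in bulk tumor. It was 8.33, 9.56 and 7.63 scaled FPKM with sh-NC and 15.8, 12.1 and 16.0 with sh-B7-H3 (1), with no overlap. On the FPKM as deposited the groups overlapped. The log2 fold change of the scaled values was 0.71 (SE 0.14, 1.64-fold, adjusted p = 0.0157), the largest of the 8 genes in any of the comparisons with sh-NC. Its range over alternatives was 0.64 to 0.83 with adjusted p between 0.00464 and 0.177, and 5 of 13 alternatives lost the call. Without bulk sh-NC replicate 3, the library richest in MIR6236, it was 0.64 (adjusted p = 0.0667), and without bulk sh-B7-H3 (1) replicate 2, also rich in MIR6236, it was 0.83 (adjusted p = 0.00464).

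In sorted cells JAK2 was 12.8, 10.2 and 7.67 with sh-NC, 12.6, 13.3 and 11.2 with sh-B7-H3 (1), and 13.8, 13.6 and 13.2 with sh-B7-H3 (2). The spread of the controls covered most of this range, and the log2 fold changes of 0.27 (SE 0.18, adjusted p = 0.433) and 0.39 (SE 0.18, adjusted p = 0.173) did not pass the test. The difference between the sorted and the bulk effect of sh-B7-H3 (1) was -0.44 (SE 0.24, unadjusted p = 0.0916, adjusted p = 0.398).

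The ratio of JAK2 to JAK1 within a library was higher with the B7-H3 hairpins in both materials. In sorted cells it was 0.308, 0.313 and 0.274 with sh-NC, 0.622, 0.511 and 0.470 with sh-B7-H3 (1), and 0.589, 0.497 and 0.479 with sh-B7-H3 (2). In bulk tumor it was 0.305, 0.348 and 0.266 with sh-NC and 0.626, 0.435 and 0.562 with sh-B7-H3 (1). All 9 libraries with a B7-H3 hairpin lay above all 6 controls, in both kinds of material. This ratio was chosen with results of these data known, and the share of gene pairs whose ratio separates so was not computed. Of single genes, 23.0% did not overlap between the sorted libraries with a hairpin and the sorted controls, and 44.5% between the bulk groups. The lowest of the 9 was bulk sh-B7-H3 (1) replicate 2, and the leukocyte-rich library, at 0.589, lay within the range of the others.

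TYK2, the kinase of IFNAR1 and of the IL-12 receptor, was the lowest of the 3 kinases. It was 5.16, 3.07 and 2.96 scaled FPKM in sorted sh-NC, 2.999, 3.22 and 3.53 in sorted sh-B7-H3 (1), and 3.78, 4.33 and 3.79 in sorted sh-B7-H3 (2). A single high control library, replicate 1, set the spread. The log2 fold changes were -0.13 (SE 0.19, adjusted p = 0.761) and 0.10 (SE 0.19, adjusted p = 0.765), and the sign turned in at least 1 alternative for each. In bulk TYK2 was 6.23, 5.80 and 5.35 with sh-NC and 5.18, 6.46 and 4.50 with sh-B7-H3 (1) (log2 fold change -0.10, SE 0.13, adjusted p = 0.608).

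**Figure D3:**
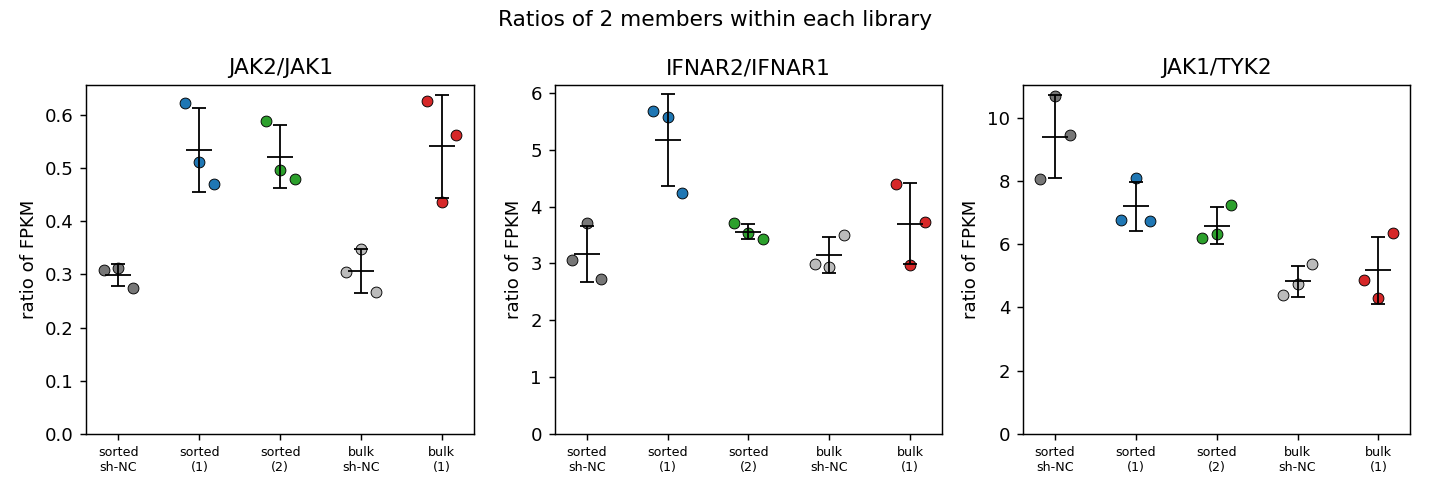
Ratios of FPKM within each library for JAK2 to JAK1, IFNAR2 to IFNAR1 and JAK1 to TYK2 (linear axes from 0), with 1 point per library and the mean ± SD of each group of 3. JAK2 to JAK1 lies at 0.435 to 0.626 in the 9 libraries with a B7-H3 hairpin and at 0.266 to 0.348 in the 6 controls. The ratios were chosen with results of these data known and carry no test.

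PTPN2, the phosphatase, did not pass the test. It was 24.1, 33.9 and 25.1 scaled FPKM in sorted sh-NC, 36.3, 37.1 and 29.3 in sorted sh-B7-H3 (1), and 28.9, 31.7 and 27.9 in sorted sh-B7-H3 (2). The groups overlapped, with log2 fold changes of 0.30 (SE 0.17, adjusted p = 0.338) and 0.10 (SE 0.16, adjusted p = 0.704). In bulk PTPN2 was 20.03, 18.2 and 21.0 with sh-NC and 26.2, 21.1 and 37.1 with sh-B7-H3 (1). The groups lay side by side without overlap, with a log2 fold change of 0.46 (SE 0.19, adjusted p = 0.126). They overlapped on the FPKM as deposited.

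Read against all genes, the counts were small. With sh-B7-H3 (1) in sorted cells, 1 of 8 genes passed the test (IFNGR2, higher), where 13.4% of all 11163 genes tested passed in either direction and 9.03% were higher. With sh-B7-H3 (2), 0 of 8 passed, where 19.1% of all genes did, and IFNGR1 and IFNGR2 had an unadjusted p under 0.05 (0.0484 and 0.0116). Over both hairpins 2 of 8 passed, 1 higher and 1 lower, against 20.5% of all genes, 12.6% higher and 7.92% lower. In bulk 2 of 8 passed, both higher, against 21.4% of all genes and 12.8% higher. The ranges of the 6 and the 3 sorted libraries did not overlap for 2 of the 8 genes (IFNGR2 and JAK1), where this held for 23.0% of all genes. In bulk they did not overlap for 5 of 8 (IFNGR1, IFNGR2, IFNAR1, JAK2 and PTPN2), where this held for 44.5%. On the FPKM as deposited all 5 overlapped in bulk. In sorted cells on that scale JAK1 overlapped, IFNGR2 stayed apart, and IFNAR2 and PTPN2 lay apart as well. The 8 genes were thus called about as often as genes in general, and the median log2 fold change of the 8 was 0.22 over both hairpins and 0.31 in bulk, against 0.01 and 0.02 for all genes tested. Of the 8, 5 had a log2 fold change above 0 over both hairpins and 6 in bulk, against 51.0% and 52.6% of all genes tested.

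**Figure D4:**
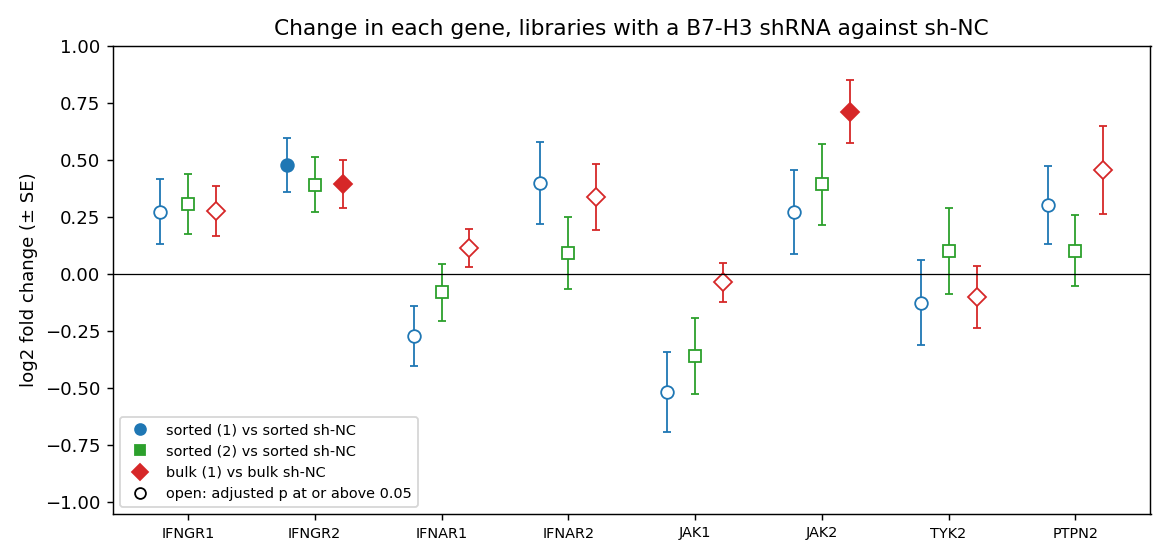
Log2 fold change (± SE, limma on log2 scaled FPKM + 1) of the 8 genes above the filter, for sorted sh-B7-H3 (1), sorted sh-B7-H3 (2) and bulk sh-B7-H3 (1), each against sh-NC of the same material. Filled symbols are those with adjusted p under 0.05, namely IFNGR2 in sorted sh-B7-H3 (1) and in bulk and JAK2 in bulk, and all other symbols are open.

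Between the hairpins in sorted cells, 0 of 8 genes passed the test by limma, against 3.40% of all genes tested. With the replicate number as a block 1864 genes passed instead of 382, still with 0 of the 8. IFNAR2 was the only one of the 8 with an unadjusted p under 0.05, higher with sh-B7-H3 (1) by 0.31 (SE 0.12, unadjusted p = 0.0338, adjusted p = 0.193). IFNAR1 differed by -0.19 (SE 0.09, adjusted p = 0.255) and TYK2 by -0.23 (SE 0.10, adjusted p = 0.244). The ranges of these 3 genes did not overlap between the hairpins, where this held for 27.2% of all genes. IFNGR2 differed by 0.08 (SE 0.09), IFNGR1 by -0.03 (SE 0.10) and JAK1 by -0.16 (SE 0.12), and a p that misses the threshold does not show that the hairpins act alike. For the effect of sh-B7-H3 (1) in sorted cells minus that in bulk, 0 of 8 passed by limma, where 0.464% of all genes tested passed. IFNAR1 and JAK1 had an unadjusted p under 0.05, a threshold that this share does not describe.

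Bulk sh-NC tumor was compared with sorted sh-NC cells to see which of the genes differ between the materials. By limma 0 of 8 passed, against 16.9% of all genes, with TYK2 and PTPN2 under 0.05 before adjustment. TYK2 was 5.35 to 6.23 scaled FPKM in bulk and 2.96 to 5.16 in sorted cells, a difference of 0.55 (SE 0.19, adjusted p = 0.0810). PTPN2 was 18.2 to 21.0 in bulk and 24.1 to 33.9 in sorted cells, a difference of -0.45 (SE 0.16, adjusted p = 0.0851). The JAK1 to TYK2 ratio was 4.39 to 5.36 in bulk sh-NC and 8.07 to 10.7 in sorted sh-NC. Leukocyte markers moved with this comparison, all 10 of 10 being higher in bulk, with sums of 366 to 544 scaled FPKM against 5.98 to 10.1 and none of the 10 at 0 in any of these 6 libraries. Whether the samples of both materials came from the same tumors is not stated, and the part of leukocytes in the difference was not tested.

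The order of the groups differed between genes. Mean IFNGR1 and IFNGR2 were highest in bulk sh-B7-H3 (1), at 74.8 ± 2.82 and 54.5 ± 1.13 scaled FPKM (SD, n = 3), and lowest in sorted sh-NC. JAK2 was also highest in bulk sh-B7-H3 (1), at 14.6 ± 2.19, and lowest in bulk sh-NC, at 8.51 ± 0.981. JAK1 ran the other way, from 34.1 ± 6.97 in sorted sh-NC to 23.3 ± 2.91 in sorted sh-B7-H3 (1). IFNAR1 was lowest in sorted sh-B7-H3 (1), at 9.37 ± 0.657, and PTPN2 highest there, at 34.2 ± 4.34. For JAK1 and JAK2, the ranges of every 2 groups that were neighbours in this order overlapped.

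Across the 15 libraries IFNGR2 was the 16th most similar of 12194 genes to IFNGR1 (Pearson r = 0.82 on log2 values), while JAK1 had r = -0.65 to it. The genes most like IFNGR1 were FKBP4 (r = 0.88), LIMD2 (r = 0.87) and ABHD12 (r = 0.87). Those most like JAK2 were DSP, which encodes the junction protein desmoplakin (r = 0.96), TBC1D1 (r = 0.96) and LYST (r = 0.95). JAK2 had r = 0.67 to IFNGR2 and to IFNAR2 but r = -0.13 to JAK1. These values describe libraries that share groups, material and scaling, so they carry no test.

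Larger log2 fold changes were measured in some genes downstream of the receptors. Of the 4 response factors described here, 3 rose over both hairpins in sorted cells, where 12.6% of all genes tested did, with a median log2 fold change of 0.63 over the 4. IRF1, a transcription factor that interferons induce, was 6.11 to 8.04 scaled FPKM in sorted sh-NC, 41.8 to 83.6 in sorted sh-B7-H3 (1) and 50.6 to 77.3 in sorted sh-B7-H3 (2). Its log2 fold change over both was 2.87 (SE 0.21, adjusted p = 6.16e-06). STAT2 (0.66) and IRF9 (0.59) also rose, and STAT3 did not pass (-0.07, adjusted p = 0.790). Without the leukocyte-rich library the same 3 passed, IRF1 at 2.79 (adjusted p = 1.43e-05). In bulk 1 of the 4 rose, against 12.8% of all genes, namely IRF1, by 1.38 (SE 0.29, adjusted p = 0.0193).

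Among negative regulators of the pathway, 4 of the 15 tested rose in sorted cells over both hairpins and none fell, and 3 of 16 rose in bulk. Of all genes tested, 12.6% rose in sorted cells and 12.8% in bulk, so the bulk count lay near the background. Without the leukocyte-rich library 3 of 15 rose in sorted cells, SOCS2 no longer passing. SOCS1, an inhibitor of JAK kinases that interferon induces, rose by 1.52 (SE 0.19, adjusted p = 0.000219) in sorted cells, from 0.946 to 1.27 scaled FPKM with sh-NC to 3.18 to 6.94. PTPN6, a phosphatase abundant in blood cells, rose by 1.25 (SE 0.24, adjusted p = 0.00398), and by 1.08 (adjusted p = 0.000309) without the leukocyte-rich library, where it was highest at 11.4 scaled FPKM against 4.26 to 6.32 in the other 5. SOCS2, which dampens growth hormone signaling, differed between the hairpins in sorted cells. It was 5.50 to 6.37 scaled FPKM with sh-NC, 7.58 to 10.2 with sh-B7-H3 (1) and 18.1 to 20.9 with sh-B7-H3 (2). SOCS2 did not pass with sh-B7-H3 (1), at a log2 fold change of 0.45 (SE 0.14, adjusted p = 0.0831), but rose by 1.52 (SE 0.12, adjusted p = 0.000157) with sh-B7-H3 (2), and the hairpins differed by -1.07 (SE 0.12, adjusted p = 0.00717). Over both it rose by 0.99 (SE 0.31, adjusted p = 0.0431), and without the leukocyte-rich library it gave 0.90 (adjusted p = 0.0783). In bulk SOCS2 rose by 0.85 (SE 0.10, adjusted p = 0.00411). CBL, a ubiquitin ligase, rose in bulk by 0.50 (SE 0.11, adjusted p = 0.0239). PTPN6 rose in bulk too, by 0.67 (SE 0.18, adjusted p = 0.0422).

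Of 25 other genes for receptor chains that use these kinases, with JAK3 among them, 16 were tested in sorted cells and 18 in bulk. Over both hairpins in sorted cells 5 rose and 2 fell, where 12.6% of all genes tested rose and 7.92% fell. Of those that rose, CSF2RB, IFNLR1 and PRLR were under 1 scaled FPKM in every sorted sh-NC library. These genes passed the filter on low values only through libraries with a B7-H3 hairpin, so the share is no measure for them. In bulk 3 rose, where 12.8% of all genes did, and this count and that of the genes that fell lay near the background. CSF2RB, the common chain of the IL-3, IL-5 and GM-CSF receptors, rose by 1.52 (SE 0.21, adjusted p = 0.000546) in sorted cells and by 0.79 (SE 0.10, adjusted p = 0.00457) in bulk. Without the leukocyte-rich library, at 5.95 scaled FPKM against 2.58 to 4.59 in the other 5, CSF2RB rose by 1.41 (adjusted p = 0.000483). IL12RB1, a chain of the IL-12 receptor, rose in sorted cells by 1.22 (SE 0.22, adjusted p = 0.00242), IL13RA1 by 0.63 (SE 0.11, adjusted p = 0.00291) and IFNLR1, the chain specific to type III interferon, by 0.55 (SE 0.10, adjusted p = 0.00337). In bulk IL10RB, the neighbour of IFNAR1 and IFNAR2, rose by 0.35 (SE 0.09, adjusted p = 0.0384), and IL6ST, the shared chain of the IL-6 family, by 0.40 (SE 0.10, adjusted p = 0.0357). JAK3, the kinase of lymphoid cytokine receptors, gave -0.02 (adjusted p = 0.958) in sorted cells.

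Some markers of other cell types moved in the same direction as some of these genes, and others of the same lists did not. Summed over 7 macrophage markers, the level was 30.7 to 44.1 scaled FPKM in sorted sh-NC, 67.9 to 94.6 in sorted sh-B7-H3 (1), and 61.5, 72.3 and 391 in sorted sh-B7-H3 (2). None of the 7 was at 0 in any sorted library. Of the 5 tested, 2 rose over both hairpins, namely CD68 and CSF1R. CD68 alone was 25.0 to 33.3 in sorted sh-NC and 50.9 to 83.1 with either hairpin. Without the leukocyte-rich library C1QA, C1QB and C1QC gave -0.07, -0.16 and 0.14 over both hairpins, and none of these passed. The sum of 6 T cell markers was 0.520 to 0.814 in sorted sh-NC, 1.25 to 1.53 in sorted sh-B7-H3 (1), and 1.68, 2.11 and 19.9 in sorted sh-B7-H3 (2), so the control sums lay below the rest, with up to 3 of the 6 at 0 in a control library. Outside the leukocyte-rich library LCK made most of each sum, at 0.380 to 0.718 in sorted sh-NC and 0.892 to 1.79 with a hairpin. CD3D did not follow, at 0.0224 and 0.0743 in sorted sh-NC replicates 1 and 2 and at most 0.0436 in those hairpin libraries. CD247 overlapped, at 0.0301 to 0.0665 in sorted sh-NC and 0.0288 to 0.116 in those hairpin libraries. CD3G was at most 0.0335 in sorted sh-NC and at least 0.0346 with a hairpin, and CD2 at most 0.0292 and at least 0.0429. CD3E was at 0 in sorted sh-NC and above 0 in those hairpin libraries except sh-B7-H3 (2) replicate 2. The sum of 6 cytotoxic markers was 0 in sorted sh-NC, 0.0682 to 0.244 in sorted sh-B7-H3 (1), and 0.189, 0.336 and 18.4 in sorted sh-B7-H3 (2). None of these 6 passed the filter on low values. The sum of 6 fibroblast markers was 31.2 to 77.5 in sorted sh-NC, 49.0 to 81.4 in sorted sh-B7-H3 (1) and 114 to 152 in sorted sh-B7-H3 (2), and with sh-B7-H3 (2) 3 of the 5 tested rose. In bulk the sum of the fibroblast markers was 81.1 to 156 with sh-NC and 265 to 635 with sh-B7-H3 (1), and 4 of the 5 tested rose. The sum of the T cell markers in bulk was 2.24 to 2.54 with sh-NC and 5.72 to 17.6 with sh-B7-H3 (1), and both of the 2 tested rose, while leukocyte sums of 366 to 544 and 343 to 675 overlapped. Some markers of the renal epithelium, the tissue of the tumor line, moved too. The sum over 7 such genes was 766 to 950 in sorted sh-NC, 1074 to 1194 in sorted sh-B7-H3 (1) and 1227 to 1330 in sorted sh-B7-H3 (2). Over both hairpins 2 of the 7 rose, EPCAM and KRT18, and 4 had a log2 fold change above 0. CDH1, PAX8 and PAX2 went the other way, at -0.46, -0.37 and -0.05, and none of these passed the test. EPCAM, an epithelial adhesion molecule, was 17.2 to 27.4 in sorted sh-NC and 126 to 221 with either hairpin, and 12.8 to 25.8 in bulk sh-NC against 90.0 to 182 in bulk sh-B7-H3 (1). The bulk sums were 676 to 780 with sh-NC and 788 to 1016 with sh-B7-H3 (1), where 2 of the 7 rose and 4 had a log2 fold change above 0. The part of these cells in the changes of IFNGR2, JAK1 and JAK2 was not tested.

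**Figure D5:**
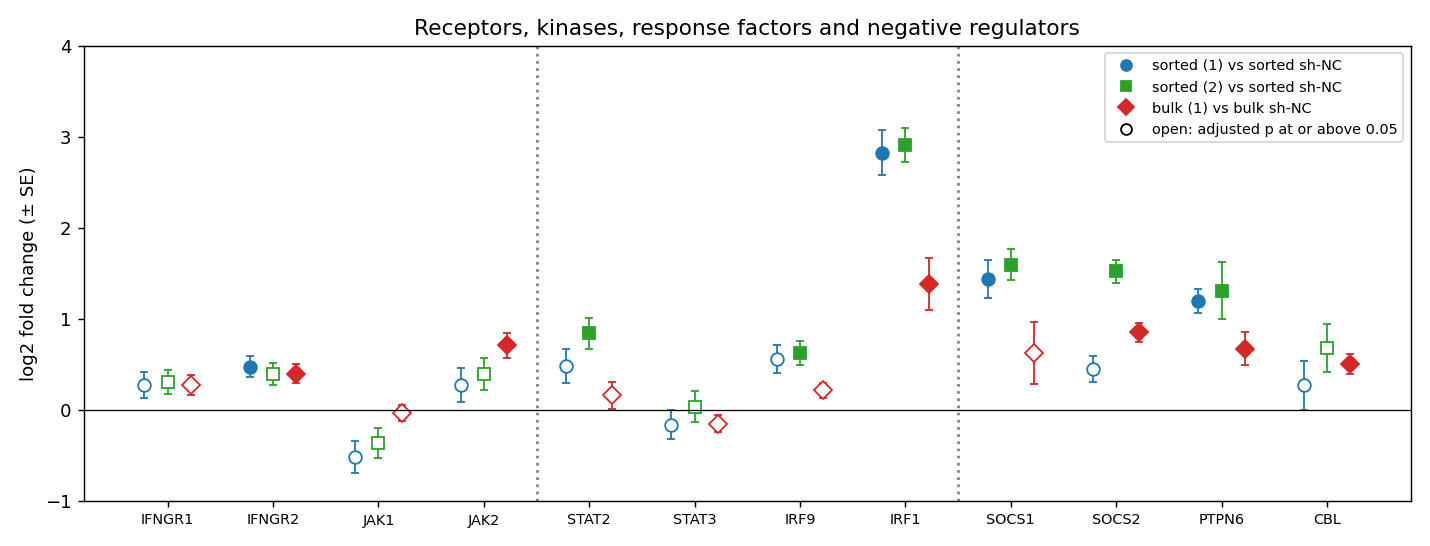
Log2 fold change (± SE) of the interferon-gamma receptor chains and their kinases (left), the response factors (middle) and the named negative regulators (right), with filled symbols for adjusted p under 0.05. IRF1, at 2.83 and 2.91 in the sorted comparisons, lies above IFNGR2, at 0.48 and 0.39.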

How the data were processed

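RNA from 15 libraries (5 groups of 3) was sequenced as single-end reads on a NextSeq instrument. The study's methods name the VIPER pipeline and the labels the build mm10, while the aligner, counter and annotation are not given in the sources used here. For library preparation the methods and the labels name different kits. The authors deposited FPKM per gene and library. Of 24917 entries, 26 date-like symbols were left out. A smaller deposited log2 table was not used, since it holds none of the 10 genes. FPKM were scaled by median ratios over 9872 genes at 1 FPKM or more in every library, and log2(value + 1) was tested with limma 3.58.1 (R 4.3.3, trend), on genes at 1 scaled FPKM or more in at least 3 libraries of the comparison, with Benjamini-Hochberg adjustment over all genes tested and a threshold of 0.05. FPKM give no read totals, so relative depth (0.468 to 1) was read from the steps of low values. Exact permutation tests (scipy 1.17.1), 59 in all, were 2-sided. The models were tested on simulated data. Sample groups and replicate numbers came from the labels. Libraries of the same number deviated together in all 3 pairs only between the hairpins in sorted cells (correlations of 0.316, 0.330 and 0.357), a pairing seen in the data and not stated in the labels. All 10 genes, the response factors, regulators and receptor chains past the threshold in both single-hairpin comparisons or in bulk (at most 6 a list), and the 3 genes most like IFNGR1 and JAK2 were named. Of the response factors, 1 is not reported here. The genes and lists were chosen with earlier results of these data known. Promoter windows came from RefSeq (GRCm38.p6), which held all 10 genes; the PTPN2 window was not used. Alternatives were the FPKM as deposited, a pseudocount of 0.1, other filters, a replicate block, all groups in 1 fit and leaving out libraries.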

Additional observations from a re-analysis of the deposited data

Results flagged for a closer look

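Over the 6 sorted libraries with a B7-H3 hairpin, each of the 10 genes was screened for a library far from the other 5, and 1 gene had one. IFNG was 0.724 scaled FPKM in sorted sh-B7-H3 (2) replicate 1 and 0 in the other 5, so the gap to the nearest library was the whole range. Chance sets about 1 in 20 groups apart in this way when values are continuous, a rate that does not hold for a gene at 0 in all libraries but 1. The same library held the highest sums of T cell, cytotoxic and leukocyte markers among the sorted libraries, and their part in the IFNG value was not tested. No gene among the 10 passed a test of the difference between the hairpins or between sorted cells and bulk.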

How the results depend on the processing

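Of the log2 fold changes of single genes recomputed under the alternatives, 492 kept their direction and side of the threshold, 33 lost the call, 20 gained one and 14 changed sign. The count of the 8 genes that passed moved most in bulk. It went from 2 to 0 with the FPKM as deposited, to 1 with no filter on low values (JAK2), and over the leave-one-out fits ranged from 0 to 4, the 4 being IFNAR2, IFNGR2, JAK2 and PTPN2 without sh-B7-H3 (1) replicate 2. Calls over all genes moved as well in the leave-one-out fits of bulk, from 546 to 3793. With sh-B7-H3 (1) in sorted cells the count of the 8 went from 1 to 0 as deposited and to 2 with all groups in 1 fit (IFNGR2 and JAK1), and ranged from 0 to 1 over leave-one-out fits. With no filter IFNGR2 still passed there. IFNB1 passed too, but it is not among the 8 and rests on 3, 2 and 3 steps against 0 in the controls. With sh-B7-H3 (2) the count of the 8 went from 0 to 1 (IFNGR2) with no filter or all groups in 1 fit, and leave-one-out fits gave 0 to 2. Over both hairpins they gave 1 to 3. Between bulk and sorted sh-NC all groups in 1 fit gave 1 (TYK2), and leave-one-out fits gave 0 to 2.

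The replicate numbers pair the samples only between the hairpins in sorted cells. With the replicate block the 8 genes gave 0 calls in sorted sh-B7-H3 (1), 1 over both hairpins (IFNGR2), 0 in bulk and 1 between bulk and sorted sh-NC (TYK2). Over all genes the block gave 915 calls in sorted sh-B7-H3 (1), 1395 in sorted sh-B7-H3 (2), 1864 between the hairpins, 1413 in bulk and 24 for sorted minus bulk. No call among the 8 changed with the block in the other comparisons.

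Without the 3 libraries rich in MIR6236, an alternative chosen after seeing the data, the 8 genes gave 0 calls in sorted sh-B7-H3 (1), 1 over both hairpins (IFNGR2) and 4 in bulk (IFNAR2, IFNGR2, JAK2 and PTPN2). Over all genes it gave 980 calls in sorted sh-B7-H3 (1), 1246 in sorted sh-B7-H3 (2), 1414 over both, 86 between bulk and sorted sh-NC and 8 for sorted minus bulk, with fewer samples in each fit. The count over all genes in the bulk fit without these libraries is not given here, so the 4 in bulk stand without a share. The repeats of IFNB1 and of the other pathway genes without the leukocyte-rich library were also chosen after seeing the data.

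Over all genes, leave-one-out fits gave 722 to 1948 calls in sorted sh-B7-H3 (1), 962 to 3614 in sorted sh-B7-H3 (2), 1414 to 2584 over both, 35 to 890 between the hairpins, 546 to 3793 in bulk, 139 to 4436 between bulk and sorted sh-NC, and 12 to 72 for sorted minus bulk. The FPKM as deposited gave 961 in bulk, 652 between bulk and sorted sh-NC and 128 for sorted minus bulk. No filter gave 137 between the hairpins. A filter of 1 in every library gave 1279 between bulk and sorted sh-NC and 13 for sorted minus bulk, all groups in 1 fit gave 3082 and 36, and a pseudocount of 0.1 gave 25 for sorted minus bulk.

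As deposited, the median log2 fold change of all genes shifted to 0.17 in sorted sh-B7-H3 (1), 0.21 in sorted sh-B7-H3 (2), 0.20 over both and 0.12 for sorted minus bulk. On that scale the sign turned for TYK2 with sh-B7-H3 (1) (0.023) and over both (0.153), for IFNAR1 with sh-B7-H3 (2) (0.134) and over both (0.020), and for JAK1 in bulk (0.002). Leave-one-out values crossed 0 for TYK2 in sorted sh-B7-H3 (1) (-0.238 to 0.081), sh-B7-H3 (2) (-0.013 to 0.307), both (-0.125 to 0.194) and bulk (-0.219 to 0.002), for IFNAR1 (-0.133 to 0.004) and IFNAR2 (-0.064 to 0.176) with sh-B7-H3 (2), and for JAK1 in bulk (-0.069 to 0.017). The cause was not tested. FPKM without read totals limits what can be said of IFNB1 and IFNG, which rest on 1 to 18 steps.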
